A study of Mus musculus with 8 samples.

Results

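Müller glia (MG) kept for 14 days in vitro (14DIV MG) were compared with MG sorted from the adult mouse retina (adult MG), across 211 of the 566 mouse miRNA probes on a NanoString nCounter panel. A probe was kept when its raw count lay above the background limit in at least 1 of these samples, the limit being the mean plus 2 SD of the 8 negative-control probes. The nCounter ligates a tag to each mature miRNA and counts the barcoded probes bound to it without amplification. Adult MG carried Rlbp-Cre:tdTomato (in the methods Rlbp-CreER with a Stop f/f tdTomato reporter, which tamoxifen activates), received tamoxifen at 75 mg/kg on consecutive days, and were FACS-sorted as tdTomato+ cells from 40 pooled retinas. The 14DIV MG, of the same genotype, came from P11 retinas and were grown in Neurobasal medium with N-2, 10% FBS and EGF at 100 ng/mL, were passaged at 6 DIV and were not sorted. Age at isolation, sorting and culture therefore all differ between these samples and cannot be told apart. Rlbp drives the Cre in MG, and also in pigmented and ciliary epithelium, which the authors dissected away. Values of P11 MG, 8DIV MG and adult neurons are given for comparison. P11 MG, of the same genotype, were sorted in the same way from 32 pooled retinas after tamoxifen at 75 mg/kg. Adult neurons were the tdTomato-negative cells of the adult sort (40 pooled retinas), a fraction that the paper describes as mostly rods. The 8DIV MG were grown and passaged as the 14DIV MG were.

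Each sample was 1 RNA pool with 1 assay, so there was no replicate and no test was possible. All intervals given are counting errors, 95% for counts and shares and wider than 95% for ratios, and they do not cover differences between pools of animals or cultures. For the cultured samples the age entries in the sample annotation are the reverse of the titles, so that the sample titled 14DIV is given as 8 days and the other as 14. The titles, the descriptions and the raw table all name 14DIV, which was followed here, and the 8DIV values are given beside the main results. The annotation also gives the source of the cultures once as 20 retinas and once as 20 mice.

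miRNAs are short RNAs that guide Argonaute proteins to mRNAs, mostly through the seed, bases 2 to 8 from the 5′ end, and miRNAs with the same seed are grouped as a family. MG are the principal glia of the retina and span its whole thickness. Brought into dishes with serum and a mitogen they flatten, spread and take on features of reactive glia. miR-204 and miR-9 are known for roles in eye and neural development, and let-7 miRNAs accumulate as cells mature.

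The mature sequences below belong to the miRNAs that the comparison turns on (RefSeq, GRCm38.p6), with the seed in capitals. The first group was lower in 14DIV MG, and miR-181a and miR-181c share their seed.
miR-204: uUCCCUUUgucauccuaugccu
miR-9: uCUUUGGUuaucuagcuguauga
miR-181a: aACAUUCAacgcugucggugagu
miR-181c: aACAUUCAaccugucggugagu
miR-135a: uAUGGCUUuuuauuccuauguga
miR-30c: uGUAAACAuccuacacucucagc
miR-335-5p: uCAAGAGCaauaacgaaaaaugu

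The second group was higher in 14DIV MG. No seed in it occurs in the first group, and within it only miR-221 and miR-222 share one.
miR-21: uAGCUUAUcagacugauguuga
miR-22: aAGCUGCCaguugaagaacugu
miR-199a-3p: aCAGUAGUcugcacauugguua
miR-199a-5p: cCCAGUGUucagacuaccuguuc
miR-146a: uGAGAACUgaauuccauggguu
miR-221: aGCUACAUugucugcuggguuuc
miR-222: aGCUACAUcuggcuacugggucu
miR-34a: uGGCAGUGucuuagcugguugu
miR-24: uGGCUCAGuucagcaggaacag

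The third group shows families whose members parted although the seed is the same, let-7g from let-7i and miR-99a from miR-99b.
let-7g: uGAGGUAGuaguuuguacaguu
let-7i: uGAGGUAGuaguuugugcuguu
miR-99a: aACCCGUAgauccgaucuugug
miR-99b: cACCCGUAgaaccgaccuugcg
miR-100: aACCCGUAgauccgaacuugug

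The raw counts of all mouse miRNA probes summed to 695390 in adult MG and 391133 in 14DIV MG. The negative controls averaged 38.6 and 23.9 counts, so that the background limit stood at 71.7 and 52.8 raw counts. Of the 211 probes, 142 were above it in both samples, 29 only in adult MG and 40 only in 14DIV MG, and the other 355 mouse probes were above it in neither. Just outside the limit were miR-1, miR-669j and miR-670 with 71 raw counts in adult MG, and just inside it miR-467a and miR-717 with 72 in adult MG and miR-669f with 53 in 14DIV MG. The synthetic positive controls had about the same geometric mean in both assays (1424 and 1428 counts). The housekeeping mRNAs did not. Actb, the cytoskeletal actin, rose from 7024 to 12624 raw counts, B2m, the light chain of MHC class I, from 375 to 2934, and the ribosomal Rpl19 from 681 to 1559, while the glycolytic enzyme Gapdh gave 730 and 652.

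This difference sets how the comparison reads. When each miRNA was taken as its share of the summed background-subtracted mouse miRNA counts, 96 of the 211 probes (45.5%) were at least 2-fold higher in 14DIV MG, 22 (10.4%) were at least 2-fold lower and 93 lay within 2-fold. Of the 96, 35 were at background in adult MG and kept only through 14DIV MG, so the filter fixed their direction by share. Of the 22, 5 were at background in 14DIV MG and kept only through adult MG. Among the 142 probes above background in both samples, 61 were higher and 17 lower in this way. The percentages over all probes given below include the probes at background in 1 sample. When the counts were divided by the background-subtracted sum of the 4 housekeeping mRNAs, as the authors scaled theirs, 23 probes (10.9%) were at least 2-fold higher and 108 (51.2%) at least 2-fold lower. Both scalings rank the probes identically, because they differ by a constant of 1.87 on the log2 scale (log2 ratio with the housekeeping scaling = log2 ratio of shares minus 1.87). The median log2 ratio was 0.83 for shares and -1.04 with the housekeeping scaling. Over 12 scalings, 10 probes were higher in 14DIV MG under all of them and 54 were lower under all. For the other 147 the sign of the ratio depended on the scaling. Some of these were at background in 1 sample, so their ratios are bounds and their direction may not be settled. Shares gave the highest ratios of the 12 and B2m alone the lowest. The 54 are thus the probes with a negative log2 ratio by share. Without the B2m scaling, 42 probes were higher under the other 11.

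Among the 68 probes with at least 500 background-subtracted counts in either sample, 30 were at least 2-fold higher by share, 11 at least 2-fold lower and 27 within 2-fold. The other 143 probes lie nearer the background, where values at or below the limit were raised to it. The limit itself is a larger share in 14DIV MG (0.00764%) than in adult MG (0.00489%), which gives a log2 ratio of 0.64 to any probe standing at it in both. The named results below therefore rest mainly on the well-counted probes.

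**Figure D1:**
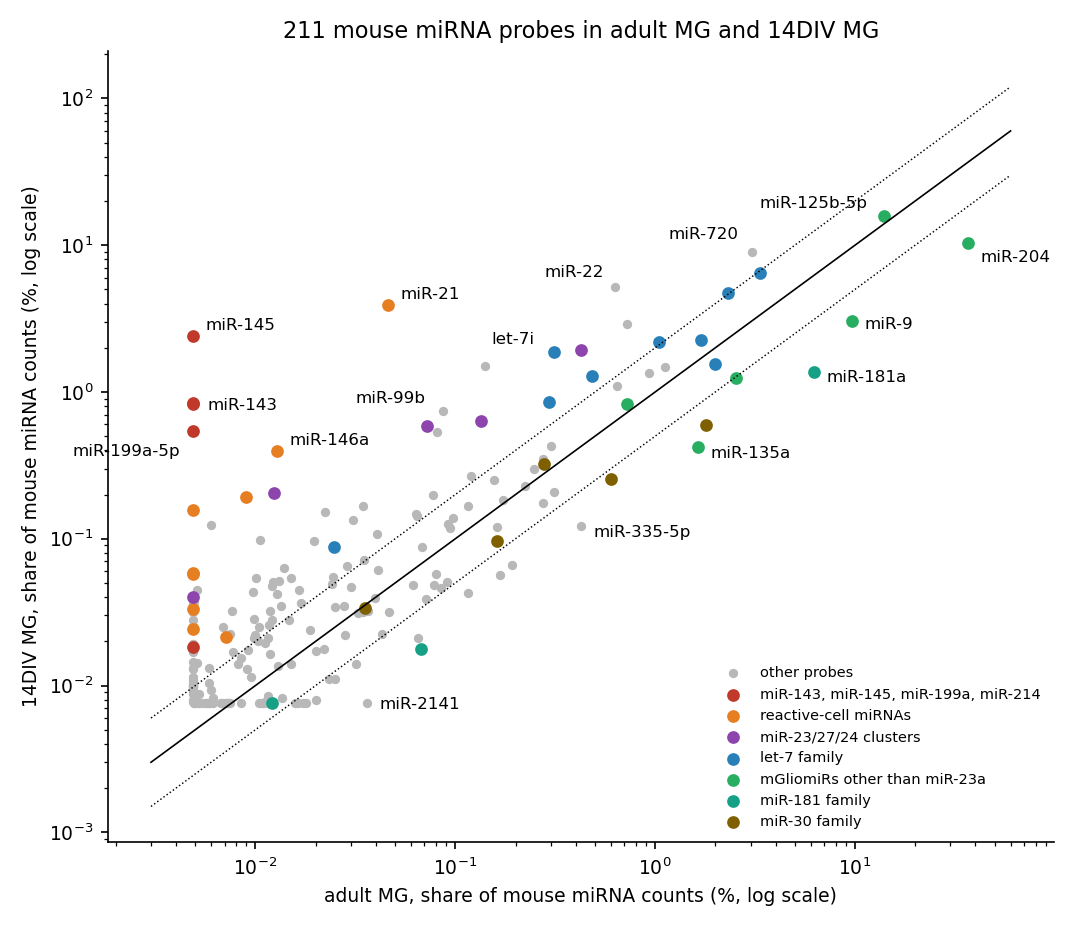
Share of mouse miRNA counts in adult MG (x axis, percent, log scale) and 14DIV MG (y axis, percent, log scale) for 211 probes, 1 point per probe, with values at or below background drawn at the limit. The solid line marks equal shares and the dotted lines 2-fold; miR-145, miR-143 and both miR-199a arms stand at the adult limit and high in 14DIV MG, while miR-204, miR-9 and miR-181a lie below the lower dotted line.

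The adult profile was steep and the cultured profile flatter. In adult MG 2 probes, miR-204 and miR-125b-5p, made up 50% of the miRNA counts and 18 made up 90%. In 14DIV MG it took 6 probes to reach 50% and 33 to reach 90%. The 10 highest probes held 81.6% of the counts in adult MG and 63.8% in 14DIV MG. The ranks of the 211 probes correlated with a Spearman rho of 0.63, and those of the 142 probes above background in both samples with a rho of 0.79, which is a description across probes of the same panel.

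Of the 12 highest probes in each sample, 7 were in common, namely miR-204, miR-125b-5p, miR-9, let-7c, let-7b, let-7d and miR-720. miR-22 moved from rank 19 to 5, miR-21 from 63 to 7, miR-125a-5p from 16 to 9, miR-145 from background to 10 and let-7a from 14 to 12. In their place miR-181a went from rank 4 to 18, miR-99a from 7 to 21, let-7g from 9 to 15, miR-30c from 10 to 29 and miR-135a from 12 to 34. Ranks do not depend on the scaling.

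**Figure D2:**
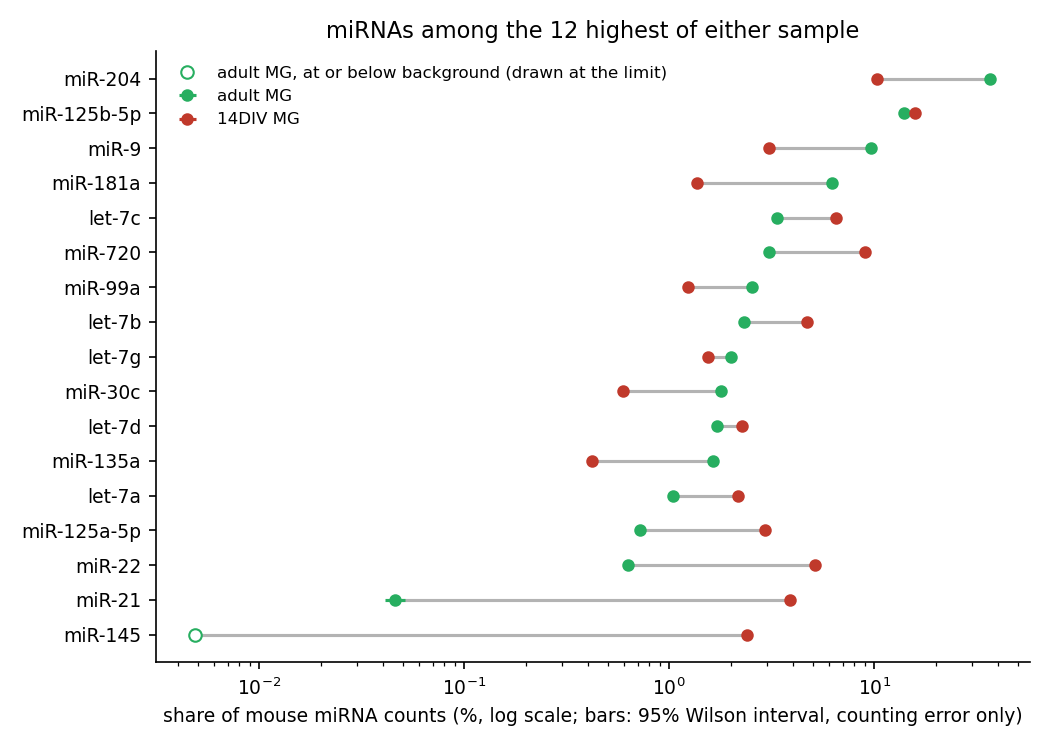
Share of mouse miRNA counts (x axis, percent, log scale) in adult MG and 14DIV MG for the miRNAs among the 12 highest of either sample, with 95% Wilson intervals that cover counting error only. miR-204 moved from 36.6% to 10.4% and miR-21 from 0.0459% to 3.90%; the open point for miR-145 stands at the adult background limit.

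The mGliomiRs, the 7 miRNAs that the authors picked in these adult samples for high counts in MG and low counts in neurons, together fell from 65.6% to 33.6% of the counts. By share 4 of the 7 were at least 2-fold lower, 1 was at least 2-fold higher and 2 lay within 2-fold. Over all probes 10.4% were lower and 45.5% higher in this way. Since they were selected for a high level in this adult MG sample, their direction is not independent evidence. With the housekeeping scaling 6 of the 7 were at least 2-fold lower, beside 51.2% of all probes.

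miR-204, which lies within the ion channel gene Trpm3, gave 247414 raw counts in adult MG and 39232 in 14DIV MG. Its share dropped from 36.6% to 10.4%, or 3.53-fold (3.48 to 3.58), and its log2 ratio was -1.82 by share and -3.69 with the housekeeping scaling. The 8DIV MG held 50185 counts and P11 MG 99116, so both fresh samples were above both cultured ones. Its seed mate miR-211, within the related channel gene Trpm1 and different by 1 base (A17U, counted from the 5′ end), had 329 and 109 raw counts and was 1.91-fold lower (1.33 to 2.80).

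miR-9, known from neural progenitors, gave 65337 and 11598 raw counts and was 3.16-fold lower by share (3.08 to 3.24). It held 89452 counts in P11 MG and 28135 in 8DIV MG, so that it was lowest in 14DIV MG. miR-135a dropped from 11150 to 1617 counts, 3.91-fold by share (3.65 to 4.18), with 8193 in P11 MG and 3020 in 8DIV MG. miR-99a dropped from 17195 to 4715 counts, 2.05-fold by share (1.96 to 2.14).

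miR-125b-5p, the second most abundant miRNA of adult MG, was the highest in 14DIV MG. It gave 94931 and 59742 raw counts, a share of 14.0% and 15.8% and a log2 ratio of 0.17. With the housekeeping scaling its log2 ratio was -1.70, the opposite sign. The mature miR-125b-5p is made from the host transcript Mir100hg on chromosome 9 and from a locus on chromosome 16, which its probe cannot tell apart. miR-100, which also lies in Mir100hg, was close to miR-125b-5p with 4910 and 3139 raw counts and a log2 ratio of 0.19 by share. miR-23a, the 7th mGliomiR, went up from 2919 to 7356 raw counts, with log2 ratios of 2.18 by share and 0.32 with the housekeeping scaling.

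Outside the mGliomiRs the miR-181 family was the most reduced. miR-181a, best known from lymphocyte development, gave 42317 raw counts in adult MG and 5203 in 14DIV MG, and its share was 4.57-fold lower (4.41 to 4.74). It held 29255 counts in P11 MG and 5706 in 8DIV MG. miR-181c, with the same seed, gave 496 and 91 counts and was 3.82-fold lower (2.64 to 5.70). The joint probe for miR-181b and miR-181d was at background in 14DIV MG (38 raw counts, 120 in adult MG). Of the 3 measured probes 2 were at least 2-fold lower by share, and all 3 were with the housekeeping scaling. Of all probes 10.4% and 51.2% were.

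The miR-30 family parted into reduced and stable members. miR-30c gave 12121 and 2284 raw counts and was 2.99-fold lower by share (2.82 to 3.18), and miR-30d gave 4087 and 987 and was 2.35-fold lower (2.14 to 2.59). miR-30b, at 1127 and 391 counts, was 1.66-fold lower (1.41 to 1.97). The other 2 of the 5 members lay within 2-fold. With the housekeeping scaling all 5 were at least 2-fold lower, beside 51.2% of all probes. miR-335-5p, which lies in the imprinted gene Mest, dropped from 2921 to 483 raw counts, with 1573 in 8DIV MG and 2355 in P11 MG, and its share was 3.52-fold lower (3.08 to 4.02). Of the panel's less studied probes, miR-1960 was 2.95-fold lower by share (1168 and 238 raw counts), miR-1927 2.89-fold (1331 and 274) and miR-1965 2.72-fold (825 and 186).

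The fall of the total was carried by few miRNAs. The background-subtracted counts of the 211 probes summed to 676215 in adult MG and 378672 in 14DIV MG. The 105 probes that went down lost 404360 counts in all, and miR-204 alone made up 51.5% of that, miR-9 13.3%, miR-181a 9.17% and miR-125b-5p 8.70%. The 106 probes that went up gained 106818 counts, of which miR-22 gave 14.3%, miR-21 13.5%, miR-720 12.7% and miR-145 8.47%. These are raw counts, with no scaling between the assays. Because shares sum to a constant, the drop of miR-204 raises the share of all others, and with miR-204 left out of the total each log2 ratio was lower by 0.50, with 62 probes at least 2-fold higher and 37 lower.

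The largest increases were those of miR-145, miR-143 and the miR-199a arms, miRNAs that mark smooth muscle, pericytes and fibroblasts. miR-145 gave 64 raw counts in adult MG, under the background limit, 83 in P11 MG, 788 in 8DIV MG and 9100 in 14DIV MG. Its share was at least 491-fold higher in 14DIV MG than in adult MG. miR-143 gave 25 raw counts in adult MG, 24 in P11 MG, 445 in 8DIV MG and 3167 in 14DIV MG, at least 170-fold higher by share. The fresh samples were at background for both, and the 14DIV MG were above the 8DIV MG.

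miR-199a-3p went from 29 raw counts in adult MG to 3213 in 14DIV MG (1509 in 8DIV MG), and miR-199a-5p from 25 to 2070 (721 in 8DIV MG), at least 172-fold and at least 111-fold higher by share. miR-214, transcribed next to miR-199a from Dnm3os at chr1:162217844-162223459, reached only 93 counts, against 37 in adult MG. Both miR-199a arms are also made from a locus on chromosome 9, within Dnm2, which their probes cannot tell apart. All 5 probes of this list were at least 2-fold higher by share, and the list's summed share was 0.00375% in adult MG, 0.789% in 8DIV MG and 4.63% in 14DIV MG. With the housekeeping scaling 4 of the 5 were at least 2-fold higher. All 5 were at background in adult MG and were kept only through 14DIV MG, so their count has no weight beyond the values themselves. The part that cells of these other types had in the result was not tested.

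Of the miRNAs known to increase in reactive and injured cells, 9 of 9 measured probes were at least 2-fold higher by share (45.5% of all probes were) and 6 of 9 with the housekeeping scaling (10.9% of all), where miR-146b had a log2 ratio of -0.28. 5 of the 9 were at background in adult MG and were kept only through 14DIV MG. Their direction by share was thus fixed by the filter, and the counts over the list are a description only. The other 2 of the 11 probes were at background in both. miR-21, within Vmp1 and often raised in reactive glia and tumours, gave 349 raw counts in adult MG, 613 in P11 MG, 15886 in 8DIV MG and 14782 in 14DIV MG. Its share was 84.9-fold higher in 14DIV MG than in adult MG (74.3 to 97.5), and with the housekeeping scaling the log2 ratio was 4.54. The cultured samples were alike and both far above the fresh ones.

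miR-146a, a feedback inhibitor of NF-κB signalling, gave 125 raw counts in adult MG, 576 in P11 MG, 1444 in 8DIV MG and 1527 in 14DIV MG, 31.1-fold higher by share (23.1 to 43.2). miR-34a, a target of p53, gave 99 and 751 and was 21.5-fold higher (14.7 to 33.4). miR-221, which represses the cell cycle inhibitor p27, went from background (69) to 620 counts, at least 32.2-fold, and its X-linked neighbour miR-222 from 28 to 149, at least 6.76-fold. miR-31 stood at 57 and 116.

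**Figure D3:**
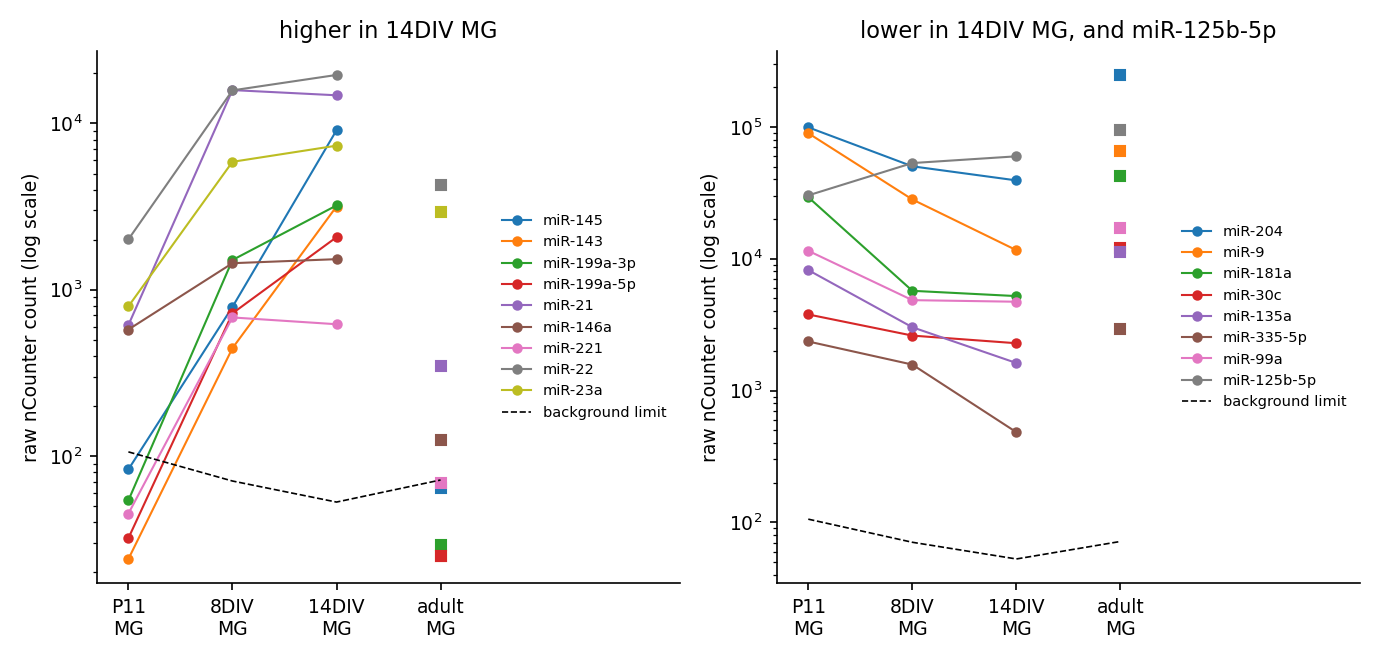
Raw nCounter counts (y axis, log scale, unscaled) in P11 MG, 8DIV MG, 14DIV MG and adult MG (x axis), 1 assay each, with the adult values as squares and the background limit dashed. miR-145 and miR-143 are at background in both fresh samples and rise between 8DIV MG (788 and 445) and 14DIV MG (9100 and 3167), whereas miR-21 gave 15886 and 14782; lines join the P11 sample and the cultures and are no time course of 1 culture.

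7 probes were at least 2-fold higher in 14DIV MG under all 12 scalings, namely miR-145, miR-143, miR-199a-3p, miR-199a-5p, miR-21, miR-221 and miR-146a. The lowest values came from B2m alone, whose own count went up most as a fold, and gave miR-145 a log2 ratio of at least 4.99 and miR-21 one of 2.46. Without that scaling 17 probes were at least 2-fold higher under the other 11, among them miR-34a, miR-24, miR-127, miR-142-3p and miR-99b. 22 probes were at least 2-fold lower under all 12, and miR-204, miR-9, miR-181a, miR-135a, miR-335-5p, miR-30c and miR-99a were among them. These are the 22 that were lower by share, because each other scaling lowers every log2 ratio, by about 0.50 or more. This count thus adds nothing to the share result.

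**Figure D4:**
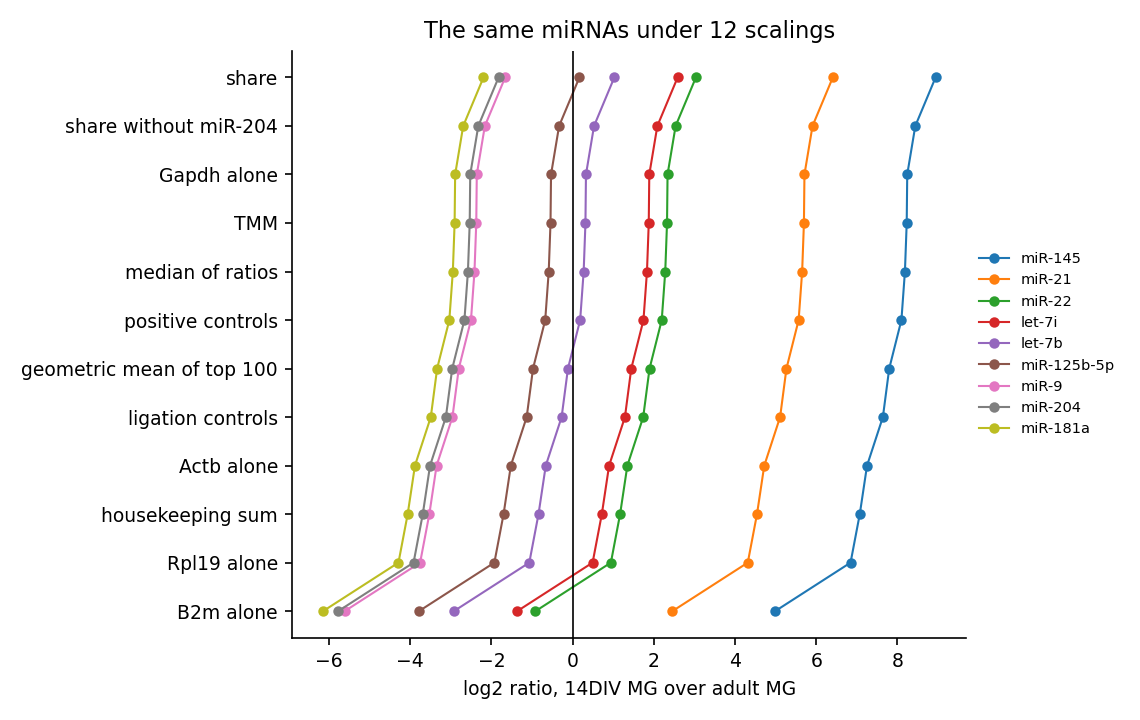
Log2 ratio of 14DIV MG to adult MG (x axis) for 9 miRNAs under 12 scalings (y axis), 1 point per scaling. Each scaling moves all miRNAs by the same amount, and shares give the highest ratio. miR-145 and miR-21 stay above 0 and miR-204, miR-9 and miR-181a below it in each, while let-7b and miR-125b-5p change sign.

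miR-22, a miRNA of its own host transcript Mir22hg, gave 4295 raw counts in adult MG, 2009 in P11 MG, 15820 in 8DIV MG and 19591 in 14DIV MG. Its share went from 0.629% to 5.17%, 8.21-fold (7.85 to 8.58), and its log2 ratio was 1.17 with the housekeeping scaling. All 5 members of the clusters of miR-23, miR-27 and miR-24 were at least 2-fold higher by share, and 3 of 5 with the housekeeping scaling, beside 45.5% and 10.9% of all probes. Of the 5, miR-27b was at background in adult MG and was kept only through 14DIV MG, so its direction by share was fixed by the filter. In the cluster at chr8:84208563-84208896, miR-23a gave 2919 and 7356 raw counts (4.55-fold, 4.28 to 4.83), miR-27a 944 and 2434 (4.75-fold, 4.27 to 5.29) and miR-24 122 and 802 (16.7-fold, 12.1 to 23.8). The mature miR-24 is also made from a second locus on chromosome 13, which the probe cannot tell apart. miR-23b rose from 528 to 2238 counts, 8.08-fold by share (7.07 to 9.26), and miR-27b from background (59) to 175.

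The let-7 family, 9 probes with miR-98, went up from 11.5% to 21.3% of the counts, which was close to the 21.3% of P11 MG and below the 27.2% of 8DIV MG. By share 6 of the 9 were at least 2-fold higher and none lower, beside 45.5% and 10.4% of all probes. With the housekeeping scaling none was at least 2-fold higher and 2 were at least 2-fold lower, beside 10.9% and 51.2% of all probes. The most abundant members of adult MG went either way in raw counts, from 22705 to 24534 for let-7c, 15661 to 17870 for let-7b, 13583 to 5883 for let-7g, 11549 to 8565 for let-7d and 7077 to 8260 for let-7a. The log2 ratios of let-7c, let-7b and let-7a were 0.95, 1.03 and 1.06 by share and -0.92, -0.84 and -0.80 with the housekeeping scaling, and those of let-7g and let-7d were -0.37 and 0.41 by share and -2.24 and -1.46 with the housekeeping scaling.

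A scaling moves all members alike, so the distance between members does not depend on it. let-7g, which differs from let-7i by 2 bases outside the seed (A17G and A19U), was 1.29-fold lower by share (1.24 to 1.35). let-7i gave 2148 and 7123 counts and was 6.01-fold higher (5.62 to 6.43). let-7e and let-7f were 2.66-fold and 2.90-fold higher by share.

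**Figure D5:**
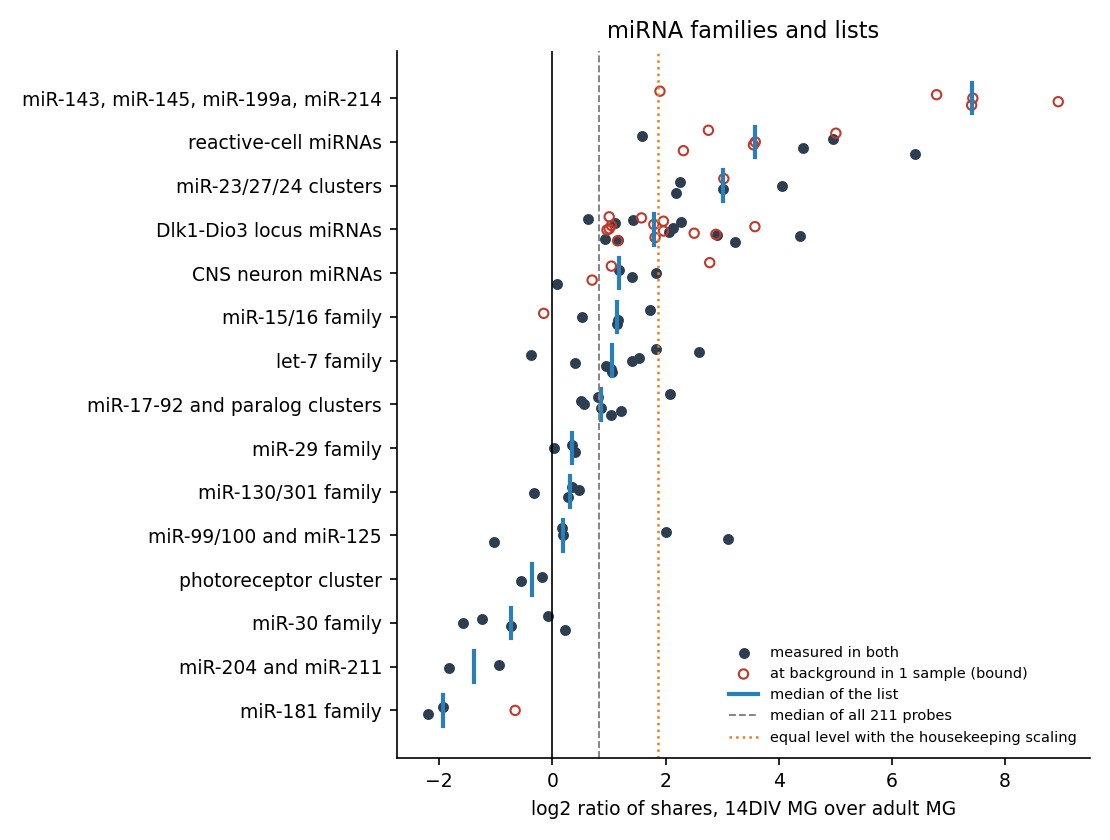
Log2 ratio of shares of 14DIV MG over adult MG (x axis) for the measured members of 15 miRNA lists (y axis), 1 point per probe, open where 1 sample was at background. The dashed line is the median of all 211 probes (0.83) and the dotted line the value that corresponds to an equal level with the housekeeping scaling (1.87); the miR-143, miR-145, miR-199a, miR-214, reactive-cell and miR-23/27/24 lists have their medians to the right of both lines, and the miR-204 and miR-211, miR-181 and miR-30 lists have theirs to the left of 0.

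The miR-99, miR-100 and miR-125 miRNAs, several of which are encoded beside let-7 genes, differed among themselves. At chr17:17830194-17830840, within Spaca6, all 3 miRNAs were at least 2-fold higher by share, as were 45.5% of all probes. miR-99b went from 623 to 2825 raw counts, 8.56-fold (7.58 to 9.68), miR-125a-5p from 4921 to 11081, 4.04-fold (3.86 to 4.24), and let-7e from 3320 to 4916, 2.66-fold (2.50 to 2.83). With the housekeeping scaling their log2 ratios were 1.23, 0.15 and -0.45. At chr16:77598940-77599693 the members parted, as miR-99a was 2.05-fold lower while let-7c, which is also made on chromosome 15, was 1.93-fold higher (1.88 to 1.98). miR-99a and miR-99b differ at 4 bases (A1C, U11A, U16C and U21C), all outside the seed, and miR-99a and miR-100 at 1 (U16A). The 3 miRNAs of this seed together made up 3.34% in adult MG and 2.80% in 14DIV MG.

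Members of the imprinted Dlk1-Dio3 locus, which holds one of the largest miRNA clusters of mammals, were low in both samples. 24 of the 52 probes were measured. Of these 21 were at least 2-fold higher by share and none lower, beside 45.5% and 10.4% of all probes. With the housekeeping scaling 5 were higher and 1 lower, beside 10.9% and 51.2% of all. 13 of the 24 were at background in adult MG and were kept only through 14DIV MG. The direction of these 13 by share was thus fixed by the filter, and the counts over the list are a description only. miR-382 gave 246 and 533 raw counts, miR-127 110 and 396 and miR-434-3p 172 and 387. The 8DIV MG held 217, 115 and 168 raw counts of these, close to the adult raw counts. By share these 3 were higher in 8DIV MG (0.0427%, 0.0186% and 0.0311%) than in adult MG (0.0307%, 0.0106% and 0.0197%). The list's summed share was 0.177% in adult MG, 0.376% in 8DIV MG and 0.945% in 14DIV MG. Its miRNAs are also expressed by many neuronal and mesenchymal cells.

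All 3 members of the miR-29 family, which target collagen mRNAs, were within 2-fold by share. With the housekeeping scaling all 3 were at least 2-fold lower, as were 51.2% of all probes. miR-29a gave 7585 and 5602 raw counts. The miR-17-92 and paralog clusters, which promote the cell cycle, had 7 measured probes. Of these 3 were at least 2-fold higher by share, close to the 45.5% of all probes. With the housekeeping scaling none was higher and 3 were at least 2-fold lower, beside 10.9% and 51.2% of all. The joint probe for miR-106a and miR-17 gave 275 and 297 raw counts against 1019 in 8DIV MG and 1418 in P11 MG. Of 5 measured members of the miR-15/16 family 3 were at least 2-fold higher by share, beside 45.5% of all probes. With the housekeeping scaling none was higher and 2 were lower, beside 10.9% and 51.2% of all. miR-16 gave 6325 and 5088 counts and miR-15b 847 and 1032. miR-720, an entry since withdrawn from miRBase as a likely tRNA fragment, gave 20736 and 34262 raw counts, and the joint probe for miR-1937a and miR-1937b, likewise tRNA-like, 986 and 5696. The log2 ratio of miR-720 was 1.56 by share and -0.30 with the housekeeping scaling.

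Most miRNAs of other cell types were low in both samples, with exceptions. miR-204, which the paper also places in pigmented and ciliary epithelium, was high in both, at 36.6% and 10.4% of the counts. Of the other miRNAs listed for these epithelia, miR-211 gave 329 and 109 raw counts and miR-184 112 and 37 (at background). The part that such cells had in the miR-204 counts was not tested. The photoreceptor cluster (2 of 3 probes measured) had a summed share of 0.0829% in adult MG and 0.0640% in 14DIV MG, against 19.3% in adult neurons, and miR-183 gave 353 and 144 raw counts. Of 11 probes for miRNAs of CNS neurons 7 were measured, with a summed share of 0.240% and 0.411%, against 32.6% in adult neurons. miR-124, the neuronal miRNA, gave 1211 and 722 raw counts and a log2 ratio of 0.09, while miR-132 (141 and 229) and miR-218 (26, at background, and 151) were higher by share. Of 5 leukocyte probes 4 were measured, at 0.0485% and 0.117%. miR-142-3p, a marker of all blood cells, gave 73 and 192 counts and a log2 ratio of 3.13 by share. miR-142-5p, the other arm of miR-142, went the other way in raw counts, with 226 and 155 and a log2 ratio of 0.32. The myeloid miR-223 gave 25 (at background) and 158, and the lymphoid miR-150 145 and 33. The endothelial miR-126-3p gave 208 and 66 counts. No erythroid or muscle probe and none of the miR-10 and miR-196 list was above background in either sample. The other exception was the mural and fibroblast list given above with miR-145, and the share of cells of that kind in the cultures was not tested. In such pools, fewer cells of a type and less RNA per cell cannot be told apart.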

How the data were processed

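The values used were raw nCounter counts, deposited by the authors without normalization, 1 per probe and pool. The deposited normalized values, read as a score, were made by the authors in nSolver with housekeeping mRNAs and control probes, and served as an alternative only. In the 14DIV MG column 16 of them match the raw counts of other miRNAs rather than their own (none in adult MG), so the raw counts were used. From each raw count the mean of the 8 negative controls was subtracted. Values at or below the limit (mean plus 2 SD) were raised to it for ratios, which are then bounds. Counts have exact Poisson and shares Wilson 95% intervals. The interval of a ratio divides the lower limit of each sample by the upper limit of the other. No test was run, with 1 pooled sample per group. The ratio code was tested on simulated counts.

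Named miRNAs are the 12 with the highest share in each sample. Also named are the 15 with the largest and the 15 with the smallest ratio among probes with at least 500 counts. Further members were named from some of the 30 lists, not always those with the highest counts. miR-329 (79 raw counts in adult MG and 496 in 14DIV MG) and miR-129-3p (313 and 431) had higher counts than some members named from their lists. let-7i, let-7e, let-7f, miR-27b, miR-31, miR-146b, miR-222 and miR-214 were named after their values were seen. Members and lists were chosen with earlier results of these data known. Of 41 probes assigned to an arm, 39 matched a RefSeq sequence (GRCm38.p6). Clusters join genes within 10 kb. Alternatives were other scalings (edgeR 4.0.16 gave the TMM factors), background limits, floors, folds, the deposited values and the 8DIV column. Tools were Python 3.11.15, pandas 2.3.3, numpy 2.4.6, scipy 1.17.1 and R 4.3.3.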

Additional observations from a re-analysis of the deposited data

Results flagged for a closer look

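The panel also holds 33 probes for viral miRNAs, which the comparison does not use. In adult MG 2 of them lay above the background limit, the higher at 91 raw counts against a limit of 71.7, while none of the 33 did in 14DIV MG, where the highest gave 42 counts.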

How the results depend on the processing

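The log2 ratio of a single miRNA moved by the same constant as all others under a given scaling, so the counts of probes moved with it. At least 2-fold higher and lower were 23 and 108 probes with the housekeeping sum, 41 and 62 with the 100 most abundant miRNAs (geometric mean), 55 and 46 with the median of ratios, 56 and 46 with TMM, 51 and 48 with the positive controls, 35 and 69 with the ligation controls, 29 and 99 with Actb, 7 and 190 with B2m, 56 and 46 with Gapdh, 17 and 125 with Rpl19, and 62 and 37 with miR-204 left out of the total, against 96 and 22 for shares. A fold of 4 left 45 higher and 2 lower probes. Without background subtraction 14 probes were lower. The counts stayed within 1.5 times of 96 and 22 under other background limits, without the filter, with a floor of 1 and with the 8DIV column (95 and 20). They did depend on probes at background in 1 sample, as 61 were higher and 17 lower among the 142 above background in both. The deposited values, turned back from the authors' housekeeping scaling into shares, gave 94 and 24. Raw values near the limit carry the least precision.

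Negative log2 ratios, against positive ones by share, were found for let-7a -0.80, let-7b -0.84, let-7e -0.45, let-7f -0.33, the miR-106a and miR-17 probe -0.82, miR-132 -0.027, miR-15b -0.71 and miR-720 -0.30 with the housekeeping sum. They were let-7a -0.62, let-7b -0.66, let-7e -0.27, let-7f -0.15, the miR-106a and miR-17 probe -0.64, miR-15b -0.53 and miR-720 -0.12 with Actb, let-7a -1.03, let-7b -1.06, let-7e -0.68, let-7f -0.56, the miR-106a and miR-17 probe -1.05, miR-125a-5p -0.078, miR-132 -0.25, miR-15b -0.94, miR-214 -0.19 and miR-720 -0.53 with Rpl19, let-7a -0.078, let-7b -0.11 and the miR-106a and miR-17 probe -0.10 with the top 100, and let-7a -0.23, let-7b -0.27, the miR-106a and miR-17 probe -0.25 and miR-15b -0.14 with the ligation controls. With B2m they were let-7a -2.89, let-7b -2.92, let-7e -2.54, let-7f -2.41, let-7i -1.36, the miR-106a and miR-17 probe -2.90, miR-1224 -1.17, miR-125a-5p -1.93, miR-127 -0.73, miR-132 -2.11, miR-142-3p -0.82, miR-15b -2.79, the miR-1937a and miR-1937b probe -0.53, miR-1937c -1.22, miR-214 -2.05, miR-218 -1.17, miR-22 -0.91, miR-222 -1.19, miR-223 -1.09, miR-23a -1.76, miR-23b -0.94, miR-27a -1.70, miR-27b -0.92, miR-31 -1.63, miR-382 -1.82, miR-434-3p -1.67, miR-720 -2.39 and miR-99b -0.85. The log2 ratio of miR-146b was -0.28 with the housekeeping sum, -0.11 with Actb, -2.37 with B2m and -0.51 with Rpl19. Of the miRNAs with a negative ratio, miR-214, miR-218, miR-222, miR-223, miR-27b and miR-31 were at background in adult MG, so their ratios are bounds and their sign is not settled there. The deposited values gave the miR-1937a and miR-1937b probe -0.96 and miR-23a -1.35, which are among the exchanged values. No paired analysis was possible because each group has 1 pooled sample and no replicate to pair.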
